A study of Homo sapiens with 8 samples.

Results

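In all, 3 pairs of libraries were compared, each pair from 1 colorectal cancer (CRC) line grown untreated and with hypoxia treatment, so that the response to low oxygen could be read gene by gene within the same line. The lines were DLD1, HCT116 and HCT8, which are established epithelial lines from human colorectal tumors, all at passage P5 and all grown in DMEM with fetal bovine serum. These 6 of the 8 libraries of the series were chosen by their labels as untreated (n = 3 lines) or hypoxia (n = 3 lines), and the other 2 libraries, of the intestinal lines NCM460 and HIEC6, entered no comparison. The oxygen level and the duration of the treatment are not given in the sources used here. Each line had 1 library per condition, so the spread behind every p-value is that of the response between lines, estimated partly from other genes. A difference within a line has no replicate check. The table held read counts for 54261 genes, and the 21045 that reached 10 counts in 2 or more of these 6 libraries were tested.

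Cells sense oxygen through prolyl hydroxylases, which need oxygen to mark the alpha subunits of the hypoxia-inducible factors (HIF) for degradation. When oxygen is low the HIF proteins persist and activate genes of glucose uptake, glycolysis, pH control and blood vessel growth. The transcription factor ATF4 runs a separate programme of amino acid synthesis, amino acid import and transfer RNA (tRNA) charging, which cells engage when amino acids are short or when the initiation of translation is restrained.

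Total counts of the 6 libraries lay between 45519306 and 57374239, and the floor used here, 3 counts, was worth 0.0523 to 0.0659 CPM (counts scaled to the library total). These values cover counting error only. The scaling factor of the HCT116 hypoxia library was 0.771, against 0.988 to 1.13 in the other 5, and the 10 largest genes took 13.1% of its counts against 6.03% to 8.86% in the others. Of the 10 colon epithelial markers checked, 6 to 10 had more than 3 counts in each library, with a summed level of 4551 to 14068 CPM (unscaled). The extraction label speaks of brain tissue, and the summed level of 8 brain cell markers was 78.5 to 299.5 CPM (unscaled). Of these 8 markers, 3 to 7 had more than 3 counts in each library, and 4 passed the count filter for testing. The lines were not equally distant from each other. Between untreated DLD1 and HCT8, 52 genes stood at 10 CPM or more in one line and at or under 3 counts in the other, against 241 between DLD1 and HCT116 and 233 between HCT116 and HCT8. The library labelled NCM460 differed from untreated HCT116 by 1 gene on the same measure, so it is called by its label only.

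Run label and treatment cannot be told apart, because the untreated and the hypoxia libraries of these lines share no run label. A second run label was carried by the hypoxia libraries of DLD1 and HCT116 and by the untreated library labelled NCM460, but by neither library of HCT8. Several genes of connective tissue followed that second label. POSTN, which encodes the matrix protein periostin, had 241 counts in DLD1 hypoxia, 320 in HCT116 hypoxia and 167 in the library labelled NCM460, and 0 to 6 counts in the other 5 libraries. MMP2, a gelatinase, had 121, 113 and 68 counts in those libraries and 0 to 8 in the others. COL1A2, a chain of type I collagen, had 658, 724 and 393 counts against 21 to 66. All 8 fibroblast markers (COL1A1, COL1A2, COL3A1, PDGFRA, PDGFRB, DCN, LUM and THY1) had more than 3 counts in each library with the second label, and 4 to 7 of the 8 did in the other 5. Their summed level was 27.8 CPM in DLD1 hypoxia and 53.1 CPM in HCT116 hypoxia, against 4.51 and 16.6 CPM in the untreated libraries of those lines, and 24.4 against 14.1 CPM in HCT8 (unscaled). It was 43.5 CPM in the library labelled NCM460, and highest, 56.7 CPM, in HIEC6, which lacks the second label. In HCT8, the log2 differences of the tested markers ran from -1.35 (COL1A2) to 2.94 (LUM), so not every marker followed the label. Of the 7 fibroblast markers tested, 0 passed in edgeR or limma-voom, 6 were higher at an unadjusted p-value under 0.05 (9.88% of all genes) and DESeq2 called 3 higher (4.54% of all genes). POSTN (log2 fold change 6.04), MMP2 (3.99) and FN1 (fibronectin, 2.80) are therefore counted among the genes that passed the test below but are set apart from the shared programme. The part that the second run label plays in them was not tested.

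**Figure D1:**
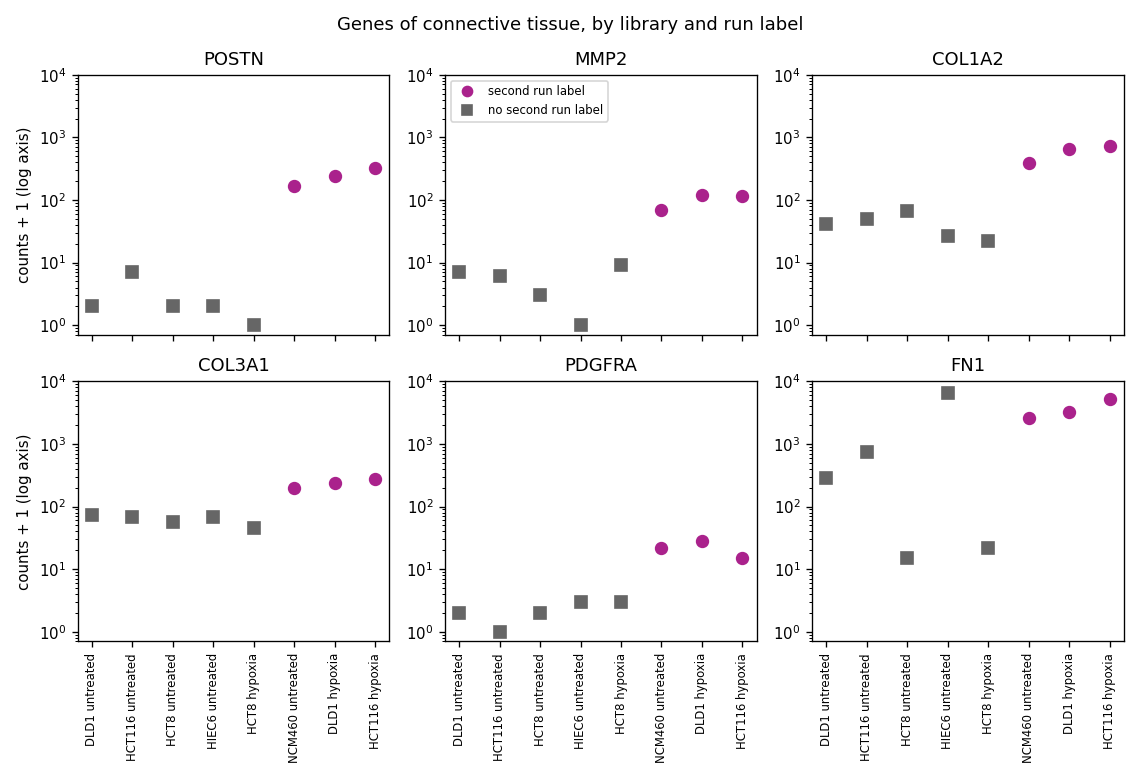
Counts plus 1 on a log axis for 6 genes of connective tissue in each of the 8 libraries, with circles for libraries that carry the second run label and squares for those that do not. POSTN had 167 to 320 counts in the 3 libraries with the label and 0 to 6 in the other 5, while FN1 was also high in HIEC6, which lacks the label.

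With the cell line as a block in edgeR's quasi-likelihood test, 200 of 21045 genes (0.95%) passed at 0.05 after Benjamini-Hochberg adjustment. Under hypoxia 156 of them were higher (0.741% of the genes tested) and 44 lower (0.209%). Of the 200, 198 moved the same way in all 3 lines. The exceptions were POSTN, which did not rise in HCT8, and FAT4, a protocadherin with 0 counts in both HCT8 libraries. The paired test favours genes whose lines agree, so this share is not support for a shared response. In HCT8, ANO6 had 2 counts in each library and BNIP3 had 0 untreated and 1 under hypoxia, so their direction there rests on counts under the floor. The genes called higher comprised 137 protein-coding genes, 10 long noncoding RNAs, 3 pseudogenes and 6 without a match in the reference gene table, and those called lower comprised 41 protein-coding genes and 3 without a match. The 16 genes of the canonical hypoxia list supplied 12 of the 156, so 144 genes that were higher lay outside it. Without a test, 406 genes (1.93%) were at least 2-fold higher in all 3 lines and 116 (0.551%) at least 2-fold lower. At an unadjusted p-value under 0.05, 2079 genes (9.88%) were higher and 1805 (8.58%) lower, and DESeq2 called 955 (4.54%) higher and 711 (3.38%) lower, the shares against which such counts in the lists below stand. The lists were chosen with earlier results of these data known, so a count above such a share is a description and not independent support. The genes merely on the same side of 0 in every line made up 23.4% of those tested on the higher side and 21.4% on the lower side.

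The calls leaned on the pairing and on HCT8. Without the block 0 genes passed in edgeR, with 607 at an unadjusted p-value under 0.05. When a pair was left out, 292 genes passed without DLD1, 738 without HCT116 and 6 without HCT8. Among the 6 were CA9, ALDOC, EGLN3, PFKFB4 and FN1, and none of the ATF4 list below. The genes called higher had median log2 differences of 1.57, 1.93 and 1.89 in the order DLD1, HCT116 and HCT8, and those called lower had -1.16, -1.67 and -1.44. DLD1 gave the smallest rise for 84 of the 156 genes that were higher. These medians describe genes chosen for their difference and are not support for it.

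**Figure D2:**
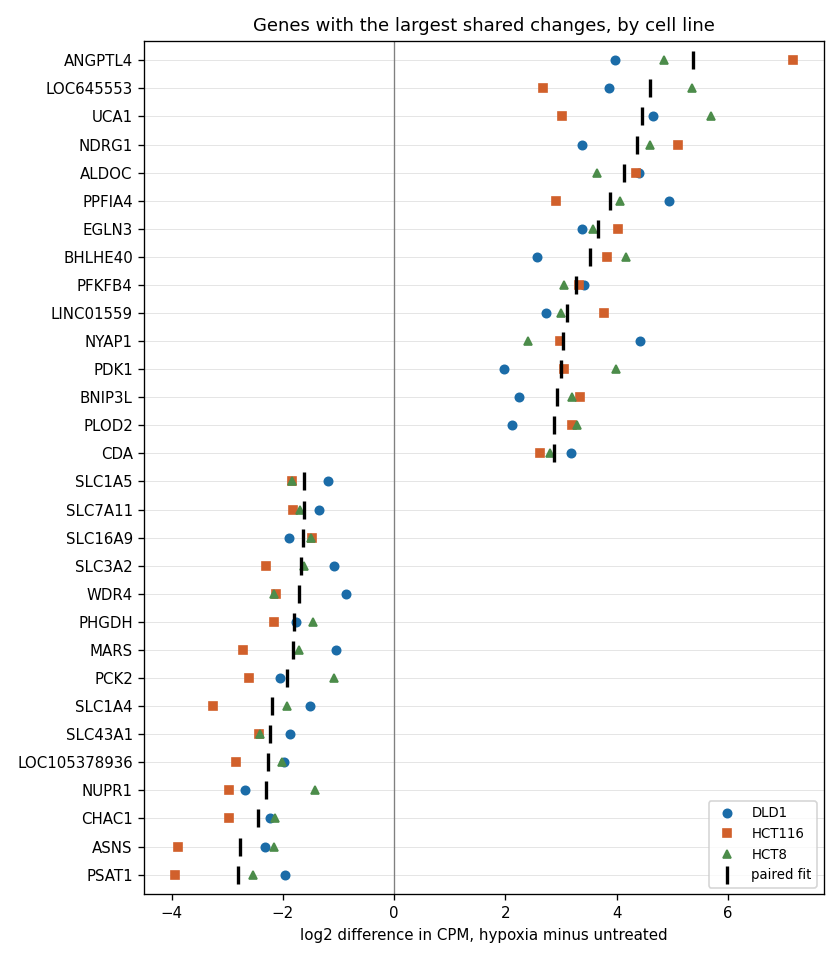
The log2 difference in scaled CPM between hypoxia and untreated for each line (points) and the fold change of the paired fit (black bars), for the 15 genes with the largest and the 15 with the smallest fold change among those called with all lines moving together and a mean log2 CPM above 1. Of the genes plotted, ANGPTL4 rose most, by 3.96 to 7.16 across the lines, and PSAT1 fell most.

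The labels were first checked on genes that answer to low oxygen. In the order DLD1, HCT116 and HCT8, which all lists of 3 values below follow, NDRG1, a growth and stress response gene, stood at 29.7, 152 and 43.4 CPM untreated and at 308, 5225 and 1046 CPM under hypoxia (CPM scaled by TMM, here and below unless called unscaled). Every hypoxia library of these lines lay above every untreated one of these lines, and the log2 fold change was 4.37 (standard error 0.35, adjusted p = 0.00462). ANGPTL4, a secreted inhibitor of lipoprotein lipase, had 1.03, 3.43 and 3.09 CPM untreated and 16.5, 498 and 89.7 CPM under hypoxia. The groups did not overlap, and its log2 fold change was 5.38 (standard error 0.59, adjusted p = 0.0113). CA9, the carbonic anhydrase that regulates pH at the cell surface, had 1, 6 and 4 counts untreated and 242, 1039 and 178 counts under hypoxia. The untreated level of CA9 rests on 11 counts, and the ratio of the summed libraries was 131 (95% exact interval 72.9 to 263, counting error only). The untreated library labelled NCM460, with the second run label, had 29922 NDRG1 counts. HCT116 had 7827 untreated and 223010 under hypoxia, and DLD1 hypoxia had 17737. The library labelled NCM460 had 36 CA9 and 162 ANGPTL4 counts. HCT116 had 6 and 177 untreated, and 1039 and 21245 under hypoxia. The part that the run label plays in these genes was not tested.

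Sensors and regulators of the pathway itself moved unequally. EGLN3, a prolyl hydroxylase that marks HIF proteins, had 10.2, 6.36 and 9.58 CPM untreated and 105, 104 and 114 CPM under hypoxia. The 3 lines ended at nearly the same level, and the log2 fold change was 3.66 (standard error 0.22, adjusted p = 0.000809). Among the 11 tested members of the list of HIF subunits and oxygen sensing, EGLN3 was the only gene that passed (background 0.741%). HIF1A, the oxygen-regulated subunit HIF-1 alpha, had a log2 fold change of -0.029 (adjusted p = 0.951), EPAS1, its relative HIF-2 alpha, 0.91 (adjusted p = 0.101), and ARNT2 was lowest at -0.73 (adjusted p = 0.133). The long noncoding RNA HIF1A-AS2, which lies antisense to HIF1A, rose from 0.0969 to 0.352 CPM untreated to 4.55 to 24.6 CPM under hypoxia. Its ratio over the summed libraries was 63.0 (95% exact interval 45.1 to 90.6), and since strand is not stated for the counting, its reads and those of HIF1A cannot be told apart where they overlap.

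Most genes of glycolysis rose. Of 23 tested genes of glycolysis and glucose uptake, 16 were called higher (background 0.741%) and 0 lower, 22 were higher in all 3 lines (23.4% of all genes), and 14 were at least 2-fold higher in each (1.93%). The median log2 fold change was 1.79, against 0.032 over all genes tested, and by line it was 1.30, 2.37 and 1.75. ALDOC, an aldolase, had 0.855, 31.9 and 80 CPM untreated and 18.9, 649 and 1001 CPM under hypoxia. The lines started far apart, so the groups overlapped, but each line rose by 3.64 to 4.41 on the log2 scale. PFKFB4, which makes the activator of phosphofructokinase, rose from 10.7, 21.6 and 28.2 to 114, 218 and 234 CPM, with a log2 fold change of 3.26 (standard error 0.19, adjusted p = 0.000809) and nearly equal rises in the 3 lines. LDHA, which turns pyruvate into lactate, rose from 1082, 797 and 376 to 4177, 6175 and 2704 CPM (log2 fold change 2.59). Its pseudogene LDHAP4 was also called higher (2.80), but near-identical copies may share reads, so the LDHAP4 value is uncertain.

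PDK1, the kinase that shuts pyruvate dehydrogenase, rose from 35.9, 27.6 and 21.7 to 141, 228 and 343 CPM, and its log2 fold change was 3.0 (standard error 0.36, adjusted p = 0.0163). Its relative PDK3 rose by 1.38. The upstream enzymes HK1 (1.55) and GPI (2.11), and the lower steps ALDOA (2.23), TPI1 (1.12), PGK1 (2.08), ENO1 (1.47) and PKM (1.51), all passed. HK2 (1.79, adjusted p = 0.0779) and the glucose transporter SLC2A1 (1.81, adjusted p = 0.0941) did not pass, with smaller differences in DLD1 (0.70 and 0.59) than in HCT116 (2.94 and 3.13). PFKM, the muscle form of phosphofructokinase, was lowest at -0.013 (adjusted p = 0.98). Of 10 tested glycogen genes, the branching enzyme GBE1 (2.06), PGM1 (1.27) and the phosphatase subunit PPP1R3B (1.63) were called higher (background 0.741%). The phosphorylase PYGB was lowest at -0.75 (adjusted p = 0.157).

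Of the canonical genes, 4 did not pass. VEGFA, the vascular growth factor, had 116, 84.7 and 51.5 CPM untreated and 135, 307 and 185 CPM under hypoxia. It moved by 0.22 in DLD1 and by 1.86 and 1.85 in HCT116 and HCT8, and its log2 fold change of 1.32 had an adjusted p = 0.104. ADM, the vasodilator adrenomedullin (3.26, adjusted p = 0.0516), and ANKRD37 (5.13, adjusted p = 0.0989) had higher values in HCT116 (5.29 and 7.96) than in DLD1 (2.06 and 1.35), and SLC2A1 is described above. BNIP3, a mitophagy receptor, passed (3.75, adjusted p = 0.00564), but its call came from HCT116. It had 0, 969 and 0 counts untreated and 5, 10624 and 1 under hypoxia, so DLD1 and HCT8 barely expressed it in either condition. Its relative BNIP3L rose in every line, from 69.9, 51.3 and 63.4 to 330, 517 and 582 CPM (log2 fold change 2.93, standard error 0.26, adjusted p = 0.00543). PINK1, the kinase that tags damaged mitochondria, rose by 1.49. BNIP3, BNIP3L and PINK1 were the members called higher among 14 of autophagy and mitophagy (background 0.741%). SQSTM1 was the lowest of that list (-0.41, adjusted p = 0.394).

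Some of the sequences upstream of these genes carry the core that HIF binds, ACGTG or GCGTG. Shown here are windows from the RefSeq promoters (GRCh38.p14) of 4 genes that rose in all lines, printed 5′ to 3′ on the strand of the gene, with the core in capitals where it reads in that direction or its reverse complement where it lies on the other strand. CA9 (chr9:35673865-35673959, plus strand) holds the core 18 bases before the start on the opposite strand, PFKFB4 (chr3:48556920-48557014, minus strand) 166 bases before it, KDM3A (chr2:86441300-86441394, plus strand) 26 bases before it, and the cyclin CCNG2 (chr4:77157132-77157226, plus strand) 30 bases before it on the opposite strand, within the palindrome CACGTG, so that ACGTG also reads on its own strand 1 base further on.
CA9: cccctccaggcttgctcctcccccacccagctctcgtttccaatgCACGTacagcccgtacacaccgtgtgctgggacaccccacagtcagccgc
PFKFB4: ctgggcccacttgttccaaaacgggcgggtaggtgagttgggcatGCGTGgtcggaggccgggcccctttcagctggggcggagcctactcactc
KDM3A: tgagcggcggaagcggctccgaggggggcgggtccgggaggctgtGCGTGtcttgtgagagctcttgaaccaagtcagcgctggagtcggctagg
CCNG2: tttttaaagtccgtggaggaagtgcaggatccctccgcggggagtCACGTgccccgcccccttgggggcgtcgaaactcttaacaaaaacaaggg

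In windows from 250 bases before to 50 after the start, searched on both strands, ACGTG was found in 59 of 163 promoters (36.2%) of the genes called higher and in 24.5% of the 17607 promoters of genes tested. For GCGTG the shares were 42.3% and 46.0%, and for either core 62.6% and 58.1%. Among 47 promoters of the genes called lower, ACGTG was found in 14 (29.8%), GCGTG in 31 (66.0%) and either core in 35 (74.5%). Of the 156 genes, 111 had a promoter entry. A palindromic CACGTG counted once. Among 18 promoters of the canonical list ACGTG was found in 11 (61.1%) and GCGTG in 8 (44.4%). A match is a run of letters and not a measured binding site.

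Outside energy metabolism, several enzymes that themselves use oxygen rose. Of 19 chromatin and DNA demethylases, 4 were called higher (background 0.741%). The histone demethylase KDM3A rose from 30.1, 55.3 and 46.4 to 100, 566 and 252 CPM (log2 fold change 2.51, standard error 0.30, adjusted p = 0.0163). The groups did not overlap. KDM4B (1.45), KDM7A (1.23) and the DNA demethylase TET1 (1.43) also passed, 13 of the 19 were higher in all lines against 23.4% of all genes, and KDM4A was lowest at -0.51 (adjusted p = 0.197). Of 14 genes of collagen hydroxylation and crosslinking, the prolyl hydroxylase subunits P4HA1 (2.63) and P4HA2 (1.27) and the lysyl hydroxylase PLOD2 were called higher (background 0.741%). PLOD2 went from 76.5, 31.5 and 50.3 to 331, 291 and 489 CPM (log2 fold change 2.87, standard error 0.27, adjusted p = 0.00564). The crosslinking enzyme LOX had the highest value, 3.97 (adjusted p = 0.127), with 0 counts in HCT8 in both conditions, and LOXL3 the lowest, -0.85 (adjusted p = 0.257).

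Among 19 secreted vascular and paracrine factors, ANGPTL4, STC1, EDN2 and EFNA3 were called higher (background 0.741%). EFNA3, an ephrin, rose from 2.93, 19.9 and 9.95 to 13.3, 58.2 and 29 CPM (log2 fold change 1.75). STC1, a secreted glycoprotein, had 9 counts in the untreated libraries together and 617 under hypoxia, a ratio of 67.6 (95% exact interval 35.4 to 149). The vasoconstrictor EDN2 was low too, at 0.0194 to 0.587 CPM untreated and 0.187 to 9.37 CPM under hypoxia. ADM2 was the lowest of this list (-1.17, adjusted p = 0.121), below 0 in all 3 lines.

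A pair of sterol regulators rose. INSIG1, which holds the sterol sensor in the endoplasmic reticulum, rose from 104, 69.6 and 181 to 341, 314 and 564 CPM (log2 fold change 1.84, standard error 0.19, adjusted p = 0.00754), and its relative INSIG2, outside the list, rose by 2.17. Of 25 genes of cholesterol synthesis, INSIG1 and the sterol carrier STARD4 (1.48) were called higher (background 0.741%). In all lines 15 were higher, against 23.4% of all genes, and the median of the list was 0.47. The desaturase SCD rose by 1.43 and was the member called among 12 genes of fatty acid synthesis. Of 13 tested lipid droplet genes 0 passed in edgeR or limma-voom, 7 were higher at an unadjusted p-value under 0.05, and DESeq2 called 5 higher. HILPDA, which slows fat breakdown, was the highest of them (2.18, adjusted p = 0.0779).

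Some genes of the clock and of growth restraint rose. BHLHE40, a repressor in the circadian clock, went from 23.6, 76.8 and 13.9 to 139, 1093 and 250 CPM (log2 fold change 3.53, standard error 0.33, adjusted p = 0.00564). With PER1 (1.96) and DBP (1.51) it made 3 of 15 tested clock genes that passed (background 0.741%), over a list median of 0.35. MXI1, an antagonist of MYC, rose from 14.9, 68.7 and 36.4 to 40.2, 390 and 134 CPM (log2 fold change 1.94), and CCNG2, a cyclin of quiescent cells, from 21.2, 38.8 and 37.6 to 76.3, 177 and 174 CPM (2.08). MXI1 was the member called among 13 glucose-sensing arrestins and growth brakes.

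Of 14 long noncoding RNAs studied under low oxygen, 5 were called higher (background 0.741%). UCA1 had 5.19, 98.2 and 4.03 CPM untreated and 131, 791 and 210 CPM under hypoxia. Every hypoxia library lay above every untreated one, and the log2 fold change was 4.45 (standard error 0.49, adjusted p = 0.0113). MIR210HG, the host of a hypoxia-induced microRNA, had 59 counts in the untreated libraries together and 1417 under hypoxia, a ratio of 23.7 (95% exact interval 18.3 to 31.3). NEAT1, the scaffold of paraspeckles, rose by 1.67. The imprinted H19 rose by 2.24, from 18, 0.116 and 56.9 to 78, 0.351 and 326 CPM, so that in HCT116 it stayed near the floor. LINC01559 (3.11) and LOC645553 (4.60) were likewise near the floor in HCT116, with 1 count each untreated and 32 and 14 under hypoxia.

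A few epithelial genes rose. KRT19, a keratin of simple epithelia, rose from 718, 865 and 690 to 1900, 2693 and 2130 CPM (log2 fold change 1.56, standard error 0.17, adjusted p = 0.0115). The junction genes TJP3 (1.16) and DSC2 (0.99) and the sodium channel subunit SCNN1A (1.42), outside the list of epithelial markers, passed too. Of the 16 epithelial markers 1 (KRT19) was called higher (background 0.741%) and 0 lower, with a median of 0.30 (0.087, 0.36 and 0.094 by line). In all 3 lines 6 were higher and 2 lower (23.4% and 21.4% of all genes), and OVOL2 was lowest at -0.55 (adjusted p = 0.664). Among 16 tested genes of intestinal differentiation 0 passed in edgeR or limma-voom and 6 were higher at an unadjusted p-value under 0.05, while DESeq2 called 5 higher. They ran from KRT20 (-1.16) to the brush border peptidase ANPEP (4.25, adjusted p = 0.0808). ITGA5, an integrin that binds fibronectin, rose by 1.57, with 1.44, 1.43 and 1.85 by line, and was the member called among 18 protease, plasminogen and adhesion genes. FN1 was the member called among 12 mesenchymal markers, whose medians were 1.60 in DLD1, 1.71 in HCT116 and -0.12 in HCT8. FN1 had 280, 742 and 14 counts untreated and 3203, 5131 and 21 under hypoxia. Its rise was thus in DLD1 and HCT116, whose hypoxia libraries carry the second run label described above. It also had 2573 counts in the library labelled NCM460, which carries that label, and 6616 in HIEC6, which does not.

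Further groups held a few calls each. NFKBIA, the inhibitor of NF-κB, rose by 1.01 and was the member called among 15 tested NF-κB targets (background 0.741%), whose median was -0.07. BCL3 (1.33) and TNIP1 (1.52), which also restrain or modulate NF-κB and lay outside the list, passed. Several metabolic genes outside every list rose in all lines, among them the inositol transporter SLC5A3 (2.56), the mitochondrial adenylate kinase AK4 (2.12), the cytidine deaminase CDA (2.87), RIMKLA (2.73), which makes N-acetylaspartylglutamate, the leukotriene hydroxylase CYP4F3 (2.43) and the cyclooxygenase PTGS1 (2.31). SLC5A3 went from 99.7, 76.9 and 161 to 424, 982 and 630 CPM. PPFIA4, a liprin of cell contacts (3.88), and NYAP1, a signalling adaptor (3.04), rose from 0.209, 4.15 and 5.52 and from 0.019, 7.62 and 2.43 CPM.

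**Figure D3:**
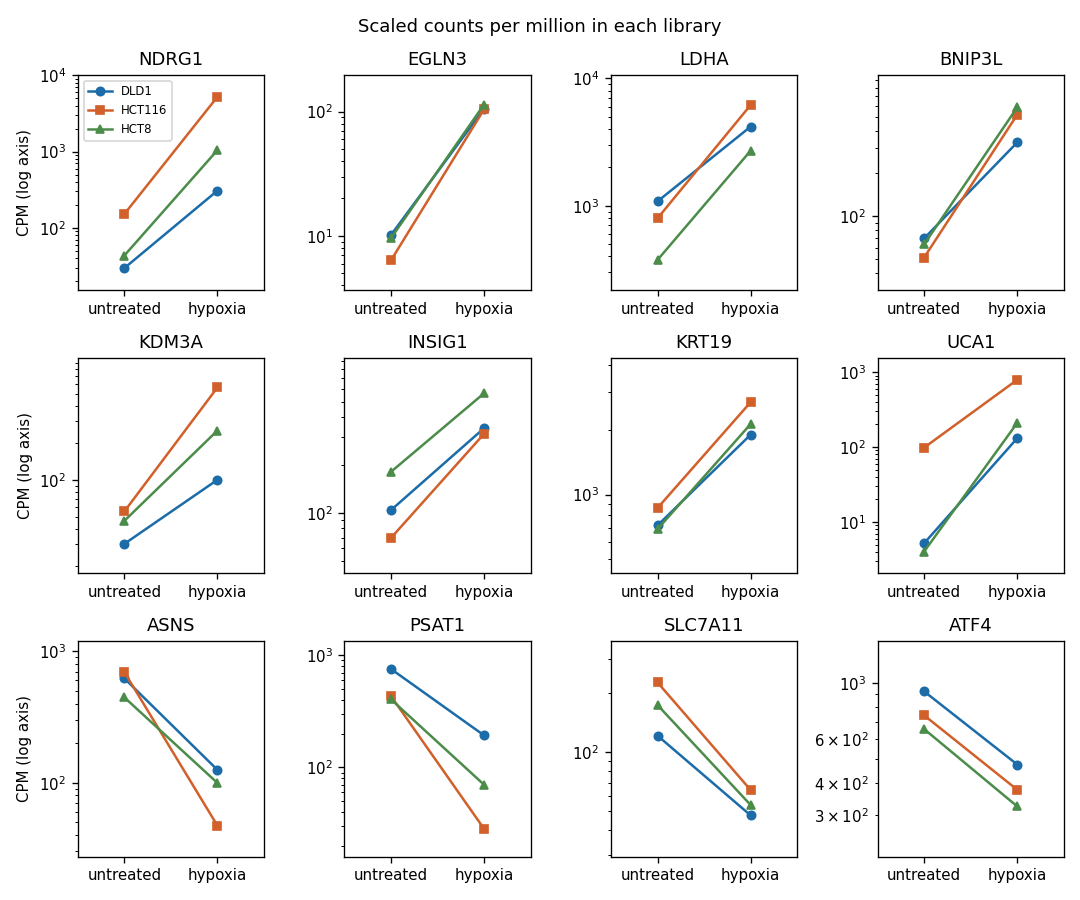
Scaled CPM on a log axis in the untreated and the hypoxia library of each line (1 library per point, lines join the pair) for 8 genes that rose and 4 that fell. EGLN3 ended at 104 to 114 CPM in all lines, and ASNS fell from 446 to 695 CPM to 47.1 to 125 CPM.

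Many of the genes that fell belonged to the ATF4 amino acid response. Of 32 genes of the ATF4 amino acid response, 15 were called lower and 0 higher (background 0.209%), 14 were at least 2-fold lower in each line, and 23 were lower in all lines against 21.4% of all genes. The median log2 fold change was -1.23, and by line it was -1.06, -1.13 and -1.11. This list too was chosen with earlier results of these data known, so its counts describe it and are not independent support. ASNS, asparagine synthetase, had 622, 695 and 446 CPM untreated and 125, 47.1 and 99.5 CPM under hypoxia. The groups did not overlap, and the log2 fold change was -2.77 (standard error 0.34, adjusted p = 0.0169). The untreated library labelled NCM460, with the second run label, had 26723 ASNS counts. HCT116 had 35849 untreated and 2009 under hypoxia. The part that the run label plays in ASNS was not tested. ATF4 itself fell to about the same degree in each line, from 926, 744 and 656 to 475, 377 and 324 CPM, with a log2 fold change of -0.99 (standard error 0.17, adjusted p = 0.042).

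The serine pathway fell at each of its 3 steps. PHGDH, the first enzyme, went from 758, 482 and 618 to 224, 108 and 225 CPM (log2 fold change -1.79), PSAT1 from 755, 433 and 405 to 193, 28.3 and 70.1 CPM (-2.80, standard error 0.36, adjusted p = 0.0187), and PSPH from 233, 68.3 and 91.6 to 97.8, 21 and 34.4 CPM (-1.45). HCT116 had the lowest level of each under hypoxia. MTHFD2, which carries the one-carbon units on in mitochondria, fell by 1.36 on the log2 scale. PCK2, the mitochondrial enzyme that makes phosphoenolpyruvate and lay outside the list, had a log2 fold change of -1.92.

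Several amino acid transporters fell. SLC7A11, the cystine importer, went from 122, 227 and 174 to 47.7, 64.3 and 53.9 CPM (log2 fold change -1.62, standard error 0.18, adjusted p = 0.0115), and SLC3A2, its heavy chain, from 685, 405 and 329 to 325, 81.9 and 106 CPM (-1.67). SLC7A5 (-1.50), the leucine transporter that pairs with the same chain, SLC1A5 (-1.62), the glutamine transporter, and SLC1A4 (-2.20), its relative for small neutral amino acids, passed. So did SLC43A1 (-2.24) and the glycine transporter SLC6A9 (-1.51), which lay outside the list, and SLC16A9 (-1.63), of the monocarboxylate transporter family. CHAC1, which breaks down glutathione, went from 103, 32.5 and 37.6 to 22, 4.15 and 8.53 CPM (-2.44, standard error 0.23, adjusted p = 0.00613). The stress regulators NUPR1 (-2.30), JDP2 (-1.50) and SESN2 (-1.36) fell too.

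Not every member of the list followed. The transporter SLC7A1 stood at -1.10 (adjusted p = 0.050, just above the threshold), and SLC38A2 stood at 0.42 (adjusted p = 0.548), with 0.13, 1.53 and -0.37 by line. DDIT4, which HIF also activates, was highest at 1.90 (adjusted p = 0.181), with -0.15 in DLD1, 3.72 in HCT116 and 2.06 in HCT8. STC2, a secreted stanniocalcin, stood at 1.38 (adjusted p = 0.0989), and TRIB3, a pseudokinase that binds ATF4, at -1.37 (adjusted p = 0.192) with -0.59, -3.15 and -0.54 by line. Of 19 chaperones of the endoplasmic reticulum, 0 passed in edgeR or limma-voom; 2 were higher and 3 lower at an unadjusted p-value under 0.05 (9.88% and 8.58% of all genes), and DESeq2 called 1 in each direction (4.54% and 3.38%). Their median was 0.17, with HSPA5, the main chaperone, at 0.44 (adjusted p = 0.382) and HYOU1 lowest at -0.89 (adjusted p = 0.145).

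Enzymes that load amino acids onto tRNA moved the same way. Of 19 tested cytosolic aminoacyl-tRNA synthetases, 4 were called lower (background 0.209%) and 0 higher. In all lines 17 were lower, against 21.4% of all genes, and the median was -0.73 (-0.54, -1.10 and -0.60 by line). MARS, for methionine, fell from 541, 483 and 384 to 263, 73.6 and 118 CPM (log2 fold change -1.81, standard error 0.31, adjusted p = 0.042). YARS (-1.24), IARS (-1.20) and SARS (-1.05) also passed, as did the tRNA exporter XPOT (-0.98). DARS, for aspartate, went the other way at 1.05 (adjusted p = 0.0649) and was higher in all lines. Its antisense partner DARS-AS1 was called higher (2.67, adjusted p = 0.038), and without strand the reads of the pair cannot be told apart. QARS, for glutamine, had 0.27 (adjusted p = 0.503).

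**Figure D4:**
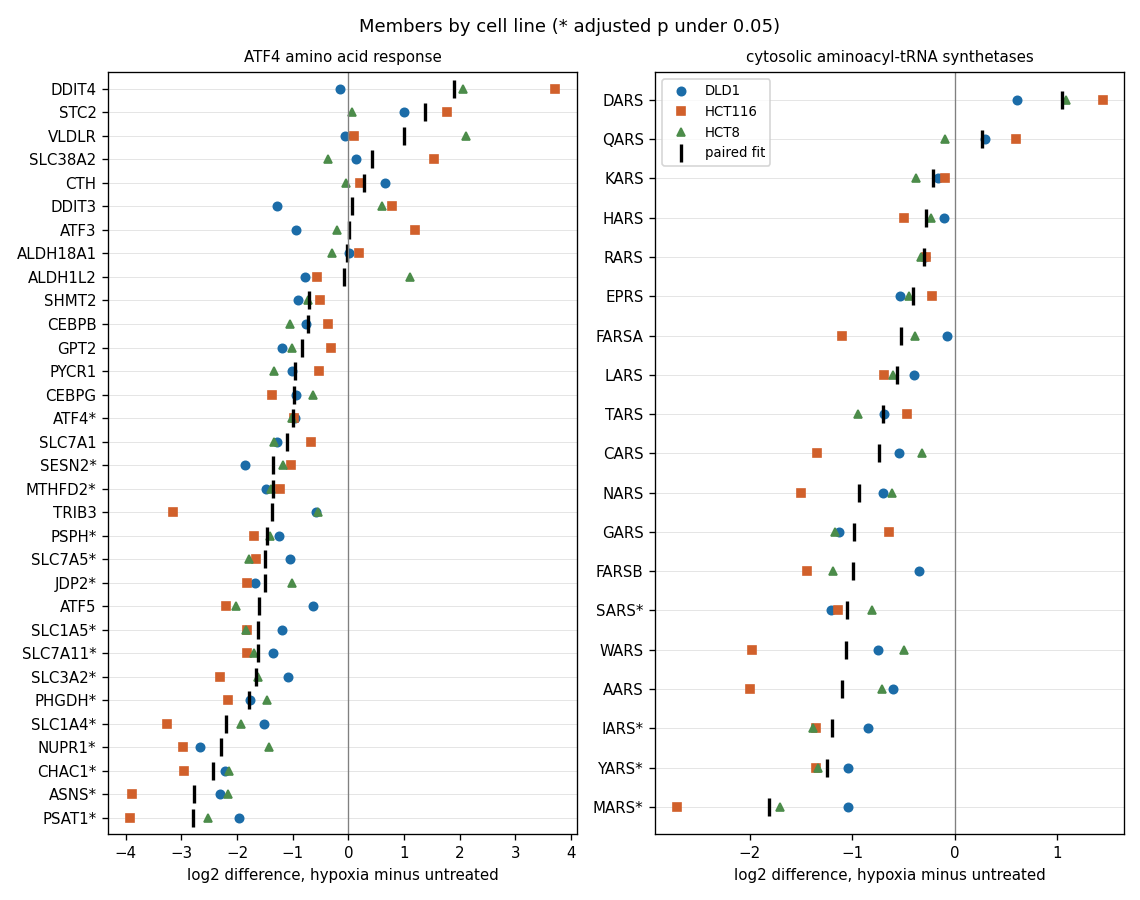
The log2 difference in scaled CPM between hypoxia and untreated for each line (points) and the paired fit (black bars) for the 32 genes of the ATF4 list and 19 tRNA synthetases, with a star on genes past the threshold. PSAT1 is lowest and DDIT4 highest in the ATF4 list, and DARS and QARS alone among the synthetases have a fitted value above 0.

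ATF4 acts with C/EBP proteins on a composite element, TGATGNAA. Shown because both genes were among those that fell most, the RefSeq promoters (GRCh38.p14) of ASNS (chr7:97872424-97872521, minus strand) and CHAC1 (chr15:40953221-40953314, plus strand) hold it 68 and 209 bases before the start, in CHAC1 on the opposite strand. Capitals mark the element or its reverse complement.
ASNS: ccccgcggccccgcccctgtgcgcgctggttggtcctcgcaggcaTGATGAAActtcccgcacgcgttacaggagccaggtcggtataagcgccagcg
CHAC1: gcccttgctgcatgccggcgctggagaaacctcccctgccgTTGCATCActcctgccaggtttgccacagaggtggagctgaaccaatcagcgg

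On either strand the element was found in 6 of 47 promoters (12.8%) of the genes called lower, in 9 of 42 promoters (21.4%) of the ATF4 list and in 2.2% of the 17607 promoters of genes tested. Of the genes called higher, 2 of 163 promoters (1.23%) held it. Promoters were on hand for 31 of the 44 genes called lower, and several genes had more than 1.

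Genes of ribosome production had few single calls and mostly values below 0. Of 31 genes of ribosome assembly, NOP56 and RRP9 were called lower (background 0.209%) and 0 higher, but 28 were lower in all lines (21.4% of all genes), and the median was -0.70 (-0.32, -0.81 and -1.17). NOP56, a core protein of the methylation guide particles, went from 293, 201 and 146 to 142, 50.1 and 43.2 CPM (log2 fold change -1.60, standard error 0.22, adjusted p = 0.0228), and RRP9 fell by 1.33 on the log2 scale. RRS1 had the lowest value, -2.18, at adjusted p = 0.0506, and NPM1 the highest, -0.0021 (adjusted p = 0.997). PDCD11 (-1.13), which processes ribosomal RNA, and WDR4 (-1.72), a tRNA methylation factor, passed outside the list. PFAS (-1.56), of purine synthesis, and ODC1 (-1.29), the first enzyme of polyamine synthesis, passed as well. The 79 tested ribosomal proteins of the cytosol had a median of 0.09, with 0.02, 0.45 and -0.28 by line, and 0 passed in edgeR or limma-voom (DESeq2 called 2 higher, and 5 were higher and 3 lower at an unadjusted p-value under 0.05).

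DNA replication genes lay mostly below 0 in every line, by unlike amounts. Of 35 genes 33 were lower in all 3 lines against 21.4% of all genes, and the medians were -0.19 in DLD1, -1.64 in HCT116 and -0.70 in HCT8. In edgeR and limma-voom 0 passed, although 26 were lower at an unadjusted p-value under 0.05 (8.58% of all genes) and DESeq2 called 11 lower (3.38%). MCM2, a helicase subunit, stood at 301, 229 and 235 CPM untreated and at 286, 49.9 and 145 CPM under hypoxia. DLD1 barely differed, and the log2 fold change of -0.97 had an adjusted p = 0.21. GINS3 was lowest (-1.61, adjusted p = 0.0751), MCM10 stood at -1.44 (adjusted p = 0.121), and RFC1 was highest (0.21, adjusted p = 0.538).

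Nucleotide synthesis and homologous recombination had a similar order of lines. Of 22 genes of nucleotide and folate synthesis, 16 were lower in all lines (medians -0.20, -1.06 and -0.75), from CTPS1 (-1.45, adjusted p = 0.0779) to IMPDH2 (0.16), and of 19 recombination genes 15 were (-0.22, -1.35 and -0.60). In both lists 0 passed in edgeR or limma-voom. At an unadjusted p-value under 0.05, 14 and 13 were lower, and DESeq2 called 8 and 3 lower. The 30 mitosis genes had a median of -0.03, with 9 lower and 6 higher in all lines (21.4% and 23.4% of all genes), and 0 passed by any of the 3 tools (1 lower at an unadjusted p-value under 0.05). Replication-dependent histones, which are expressed with DNA synthesis, had medians of 0.10, -2.02 and -0.94 over 67 tested genes. In edgeR and limma-voom 0 passed, with 31 lower at an unadjusted p-value under 0.05 and 9 called lower by DESeq2. In bulk RNA, fewer cells in a phase of the cycle and less RNA per cell cannot be told apart.

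Lists of respiratory chain and mitochondrial ribosomal genes held 0 calls in edgeR. Of 70 tested nuclear subunits of the respiratory chain, 33 were lower and 8 higher in all lines, with a median of -0.18 and values from NDUFA6 (-1.17, adjusted p = 0.214) to UQCRB (0.44, adjusted p = 0.26). The 75 mitochondrial ribosomal proteins had a median of -0.34, and 43 were lower in all lines, with MRPS12 lowest (-1.50, adjusted p = 0.209) and MRPS6 highest (1.73, adjusted p = 0.0747). In edgeR and limma-voom 0 of either list passed. At an unadjusted p-value under 0.05, 12 and 29 were lower and 1 and 1 higher, and DESeq2 called 3 and 10 lower and 0 and 1 higher. Of 31 proteasome subunits 0 passed by any of the 3 tools (2 lower at an unadjusted p-value under 0.05), with a median of -0.20.

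Stress and signalling lists without a call in edgeR or limma-voom were the following. Heat shock chaperones (16 tested) had a median of -0.57, with 10 lower in all lines, 9 lower and 1 higher at an unadjusted p-value under 0.05, and 3 called lower by DESeq2. Immediate early genes (17) differed between lines, with medians of -0.26, 1.74 and 0.028, 5 higher at an unadjusted p-value under 0.05 and 3 called higher by DESeq2. Host genes of small nucleolar RNAs (21) had a median of -0.50, with 6 lower and 1 higher at an unadjusted p-value under 0.05 and 3 called lower by DESeq2. The medians were -0.079 for 20 p53 targets, -0.15 for 19 NRF2 targets, 0.013 for 17 Wnt targets and stem cell genes, and -0.14 for 16 genes of the citrate cycle and pyruvate dehydrogenase. At an unadjusted p-value under 0.05 these 4 lists, against 9.88% and 8.58% of all genes, held 2, 2, 3 and 1 genes on the higher side and 2, 5, 5 and 1 on the lower side, and DESeq2 called 1, 1, 2 and 1 higher and 0, 4, 3 and 1 lower.

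**Figure D5:**
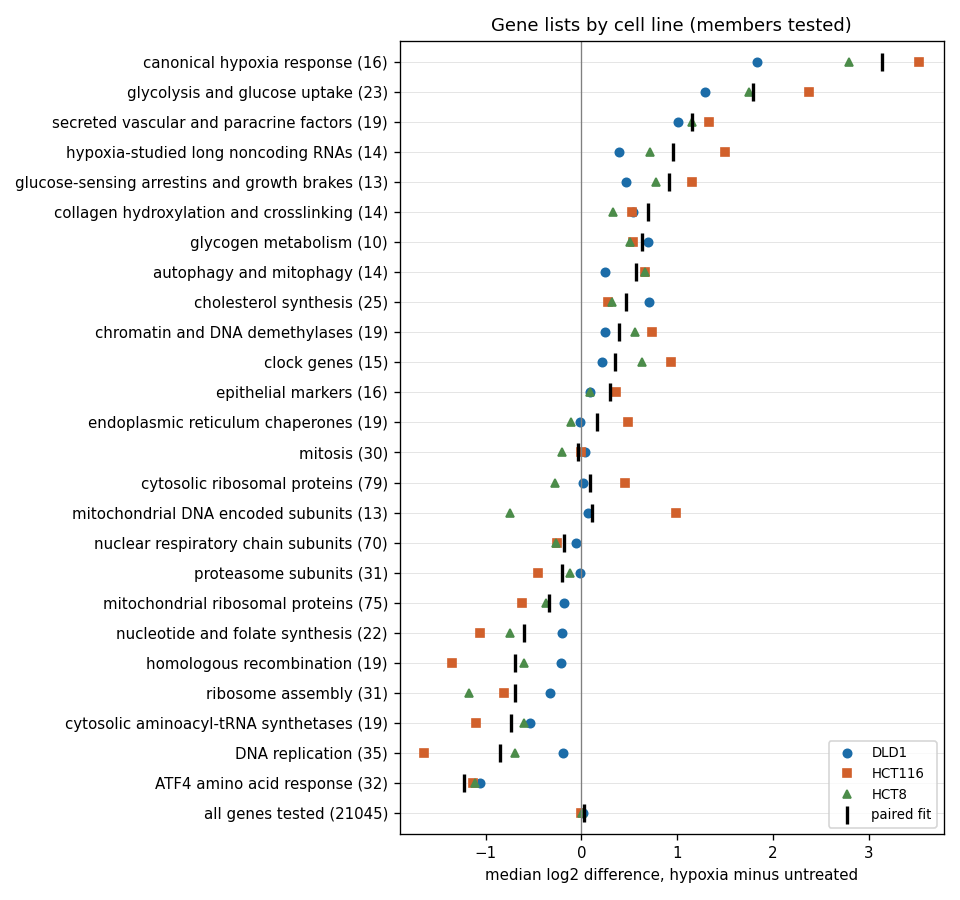
The median log2 difference in scaled CPM between hypoxia and untreated over the tested members of 25 gene lists and over all genes, by line (points) and for the paired fit (black bars), with the number tested in parentheses. The ATF4 list lay between -1.13 and -1.06 in the 3 lines, while the DNA replication list ran from -0.19 in DLD1 to -1.64 in HCT116.

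Across the 9878 genes with a mean log2 CPM above 3, the differences of the lines correlated at r = 0.483 between DLD1 and HCT116, 0.661 between DLD1 and HCT8 and 0.613 between HCT116 and HCT8. The points are genes of the same 6 libraries and are not independent. Among these genes 92 were at least 2-fold higher in all lines, of which 76 were called, and 24 were at least 2-fold lower, of which all 24 were called. The genes that were at least 2-fold higher in 1 line and 2-fold lower in another numbered 13. PDGFA, a growth factor of connective tissue cells, differed by -1.35, 4.86 and 0.19, with 1080 counts in untreated HCT116 and 25948 under hypoxia. The others with the largest range were NNT, a mitochondrial transhydrogenase (-0.12, 3.13 and -1.01), the long noncoding RNA AFAP1-AS1 (-0.69, 2.89 and -1.13), PRR15L (1.33, -2.26 and 1.58), FAM107B (-1.50, 1.64 and -0.45) and EPN3, an endocytic adaptor (1.05, -1.83 and -0.22). For NNT, AFAP1-AS1 and PRR15L the HCT116 values rest on 2 to 35 counts. Whether the lines differ in these genes was not tested, since each line has 1 pair.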

How the data were processed

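Total RNA was sequenced by the authors after removal of ribosomal RNA. The deposited table holds raw read counts per gene symbol without normalization. The submitters' processing notes name HISAT2 2.0.4 and the build GRCh38, whereas the methods name GRCh37.p13, so no coordinates were taken from the table; the counter, its strand setting and the treatment of reads with several matches are not given in the sources used here. All columns were mapped to samples by the letter, number and line of the titles (0 left aside).

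Hypoxia was compared with untreated in the 3 CRC lines with edgeR 4.0.16 in R 4.3.3 (glmQLFit, glmQLFTest, TMM normalization, the line as a block, Benjamini-Hochberg adjustment over all 21045 genes, threshold 0.05) after dropping genes that did not reach 10 counts in 2 or more libraries. Differences per line are of log2 CPM with a prior count of 2, and the standard error is the size of the fold change over the root of F. The number in the titles stands for the line and thus pairs a line's libraries. Deviations from group means correlated at 0.836, 0.857 and 0.82 within lines and at -0.611 to -0.0599 between them. Subtracting the mean of the 3 lines pushes the values between lines below 0, so their sign is not support for the pairing. The fit was also run on simulated counts in which each changed gene had the same fold in every line. Unequal responses between lines were not simulated, so that run cannot speak to them. DESeq2 1.42.0, limma-voom (limma 3.58.1), other scalings and filters, no block and each pair left out were alternatives, while thinning to the smallest library and leaving the 10 largest genes out of the library sizes were chosen after seeing the data.

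The genes and 49 lists were chosen with earlier results of these data known; lists are described by counts and medians, with no set test. Named genes are the 15 with the largest and the 15 with the smallest log2 fold change among called genes whose lines all moved the same way and whose mean log2 CPM exceeds 1; NDRG1, ANGPTL4, CA9 and ASNS; of each list described, up to 4 called members, the extremes and defining members; and the 6 genes most unlike between lines with a mean log2 CPM above 3. Genes named outside these rules were chosen after their values were seen. The 3 pairs carry 3 line labels, but whether these lines came from separate donors is not stated in the sources used here. Nor is it stated whether the libraries of a pair came from separate cultures. Untreated DLD1 and HCT8 differed by 52 genes on the measure above, against 241 and 233 for the comparisons with HCT116. The 3 lines may therefore not be independent replicates of the response, which was not tested. Some members of the cholesterol synthesis list are not reported here by name.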

Additional observations from a re-analysis of the deposited data

Results flagged for a closer look

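Several results had opposite directions in different lines, and none of these differences was tested, since each line has 1 pair. The 13 subunits encoded by mitochondrial DNA had medians of 0.074, 0.99 and -0.74 (log2 differences in DLD1, HCT116 and HCT8). The NF-κB targets had 0.0089, 0.48 and -0.65, and the 3 tested immune cell markers 0.033, 1.48 and -0.57. Single genes with opposite directions were PDGFA (-1.35 in DLD1, 4.86 in HCT116 and 0.19 in HCT8), NNT (-0.12, 3.13 and -1.01), AFAP1-AS1 (-0.69, 2.89 and -1.13), PRR15L (1.33, -2.26 and 1.58), FAM107B (-1.50, 1.64 and -0.45) and EPN3 (1.05, -1.83 and -0.22). In the library labelled NCM460, which entered no comparison, POSTN had 167 counts, MMP2 68 and COL1A2 393, above the untreated CRC lines.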

How the results depend on the processing

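The number of genes called was 0 without the cell line block (0 higher and 0 lower), 1666 with DESeq2 (955 higher and 711 lower) and 1904 with no filter on low counts (968 and 936), against 200 (156 and 44). Leaving out a pair gave 6 to 738 genes (6 to 461 higher and 0 to 277 lower), with 6 when HCT8 was left out and 738 without HCT116. DESeq2 called 198 of the 200 genes, and the cause of these gaps was not tested. With 10 counts asked of all 6 libraries, 176 genes were 2-fold higher in all lines and 43 lower, and over the remaining 2 pairs 698 to 940 were higher and 226 to 582 lower; fewer genes are tested there, and fewer lines have to agree.

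Of 588 list medians recomputed, 567 moved by less than their SD over the 3 lines. The 21 others are as follows. Without the block the medians were 0.42 (glycogen), 0.51 (collagen), -1.05 (ATF4) and -0.27 (NRF2 targets), with limma-voom 0.54 (collagen) and -0.28 (NRF2 targets), and with upper-quartile normalization -1.18 (ATF4). With 10 counts in all libraries they were -1.33 (ATF4), 1.10 (intestinal differentiation) and 0.24 (metallothioneins). With a pair left out they ran from 1.39 to 2.34 for glycolysis, 0.40 to 0.79 for collagen, 1.03 to 1.44 for secreted factors, -1.26 to -1.06 for ATF4, -0.17 to 0.32 for interferon-stimulated genes, 0.11 to 0.38 for epithelial markers, 0.52 to 0.98 for intestinal differentiation, -0.28 to -0.11 for NRF2 targets, -0.78 to 0.42 for metallothioneins and 0.33 to 1.33 for long noncoding RNAs. The cause was not tested.

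Among named genes, 20 of 1676 recomputed values changed sign, all of genes that did not pass. A further 228 kept their sign but lost the call, and 80 gained one. Of 101 called genes among them, 0 stayed called without the block. With a pair left out, 78 did without DLD1, 97 without HCT116 and 5 without HCT8. With 10 counts asked of all libraries, where fewer genes are tested, 79 did, against 100 with DESeq2 and 99 with limma-voom. PFKM was 0.014 with DESeq2, 0.032 with upper-quartile normalization, 0.014 with RLE size factors, 0.011 with 10 counts in all libraries and -0.16 to 0.071 with a pair left out. NPM1 was 0.024, 0.042, 0.024 and 0.022 in the same order, 0.055 without the block, 0.0011 with thinned counts and -0.23 to 0.12 with a pair left out. HIF1A was 0.015 with upper-quartile normalization and -0.13 to 0.070 with a pair left out. KRT20 was 0.076 without the block and -0.80 to 0.050 with a pair left out, and with a pair left out IMPDH2 was -0.016 to 0.35 and SLC38A2 -0.13 to 0.84. No called gene that the text names changed sign under the scalings, whose medians of all genes ran from 0.031 to 0.077. The fit has 2 residual degrees of freedom per gene before the spread is shared across genes. Depth limits the ratios of CA9, STC1, HIF1A-AS2 and MIR210HG, whose untreated libraries together held 11, 9, 35 and 59 counts.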
